A study of Mus musculus with 2 samples.

Results

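Mir423, Mir744, Mir151, Mir149 and Mir342 are 5 microRNA genes that each lie inside an intron of a protein-coding gene, and they were chosen by symbol from the 1973 microRNA genes counted in midbrain of mouse embryos. All 5 were found in both libraries. They were picked with their abundance in these data known, so their levels are given as a description without a test. The series has 1 group, midbrain of B6NCrl mouse embryos at embryonic day 10.5, pooled from males and females and described as healthy. Its replicate 1 is a library from 69 embryos and replicate 2 a library from 51 embryos, both of RNA below 30 nt. There is no treatment, mutant or second tissue, and the messenger RNA of the hosts is not analysed here, so the data give the level of each microRNA gene, its place among the other intronic microRNAs and the difference between both pools.

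A microRNA inside an intron is usually copied as part of the host's primary transcript, when both lie on 1 strand. The Drosha and DGCR8 complex cuts the hairpin out of the intron, Dicer removes the loop, and 1 of the arms is kept in an Argonaute protein, where bases 2 to 8 of the mature strand, the seed, find the target messages. Some intronic microRNAs also have promoters of their own. At embryonic day 10.5 the midbrain is a neuroepithelium made mostly of dividing progenitors, with blood vessels and mesenchyme around it.

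Sequences of Mir423, Mir744, Mir149 and Mir342 are given from RefSeq (GRCm38.p6), and Mir151 is named only. The mature arms are shown because the seed decides which messages a microRNA can pair with. They are printed from 5′ to 3′ with the seed in capitals.
miR-423-5p: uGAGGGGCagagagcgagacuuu
miR-423-3p: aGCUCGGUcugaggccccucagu
miR-744-5p: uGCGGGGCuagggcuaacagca
miR-744-3p: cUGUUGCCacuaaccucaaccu
miR-149-5p: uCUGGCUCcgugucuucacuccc
miR-149-3p: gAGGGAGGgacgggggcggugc
miR-342-5p: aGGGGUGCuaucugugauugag
miR-342-3p: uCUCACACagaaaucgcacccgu
No seed is shared among these 8 arms, which are 22 or 23 bases long. Among the other mature mouse sequences of the table, the seed of miR-423-5p occurs in miR-6921-5p, whose gene Mir6921 had 0 reads in replicate 1 and 1 read in replicate 2, against 32419 and 32896 reads of Mir423. The seed of miR-149-3p occurs in miR-1943-5p, miR-7016-5p and miR-6967-5p. Of their genes, Mir1943 had 8 and 13 reads, Mir7016 had 3 and 4, and the 2 copies that carry miR-6967-5p, Gm27775 and Gm27740, had none, against 28651 and 28831 reads of Mir149. The other 6 seeds occur in no other mature sequence of the table. The counts are per gene, so how the reads of a gene divide between its arms is not known here.

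The label as intronic microRNAs of coding genes holds for all 5. None of them overlaps an exon of any transcript of the host in GENCODE M21 (GRCm38), and each lies on the strand of its host. No other microRNA gene of that annotation lies in the same host or within 10 kb of any of them, so that each of the 5 stands alone.

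Mir423 (ENSMUSG00000065518.2, chr11:77078064-77078172, minus strand) lies in intron 1 of 6 of Nsrp1, which encodes a splicing regulator of nuclear speckles. It begins 206 bases after the end of exon 1, in an intron of 1634 bases, and 0.263 kb after the start of the gene. Its hairpin is shown with both arms in capitals, which stand 13 bases apart across the loop.
Mir423 hairpin: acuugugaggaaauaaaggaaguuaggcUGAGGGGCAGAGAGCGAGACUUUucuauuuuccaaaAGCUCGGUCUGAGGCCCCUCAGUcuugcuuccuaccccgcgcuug
Mir744 (ENSMUSG00000076460.1, chr11:65734733-65734832, minus strand) lies in intron 3 of 10 of Map2k4, whose kinase activates the stress kinases of the JNK and p38 families. It is 359 bases from the exon before it, in an intron of 15588 bases. Its arms, again in capitals, stand 35 bases apart, the longest loop of the 4 hairpins shown.
Mir744 hairpin: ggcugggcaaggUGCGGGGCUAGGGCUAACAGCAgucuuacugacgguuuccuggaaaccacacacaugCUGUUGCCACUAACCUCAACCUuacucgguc
Mir149 (ENSMUSG00000065470.1, chr1:92850378-92850443, plus strand) lies in intron 1 of 8 of Gpc1, which encodes glypican-1, a heparan sulfate proteoglycan of the cell surface. The intron has 21249 bases, and the gene lies 18280 bases into it. Its hairpin is the shortest of the 4, with 66 bases, and has the highest share of G and C, 68.2%.
Mir149 hairpin: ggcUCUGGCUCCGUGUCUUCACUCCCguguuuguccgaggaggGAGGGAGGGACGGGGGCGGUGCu
Mir342 (ENSMUSG00000065436.1, chr12:108658620-108658718, plus strand) lies in intron 3 of 13 of the principal transcript of Evl, which encodes an actin regulator of the Ena/VASP family. It is 5520 bases into an intron of 20189 bases and 103.9 kb after the start of the gene.
Mir342 hairpin: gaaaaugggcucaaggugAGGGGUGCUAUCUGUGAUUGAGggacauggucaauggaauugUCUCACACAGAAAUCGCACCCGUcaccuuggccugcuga
Mir151 (ENSMUSG00000065612.1, chr15:73254815-73254882, minus strand) lies in intron 22 of 31 of the principal transcript of Ptk2, the gene of focal adhesion kinase, 168.4 kb after the start of the gene. An annotated antisense gene, 1700085D07Rik, also spans it on the other strand.

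**Figure D1:**
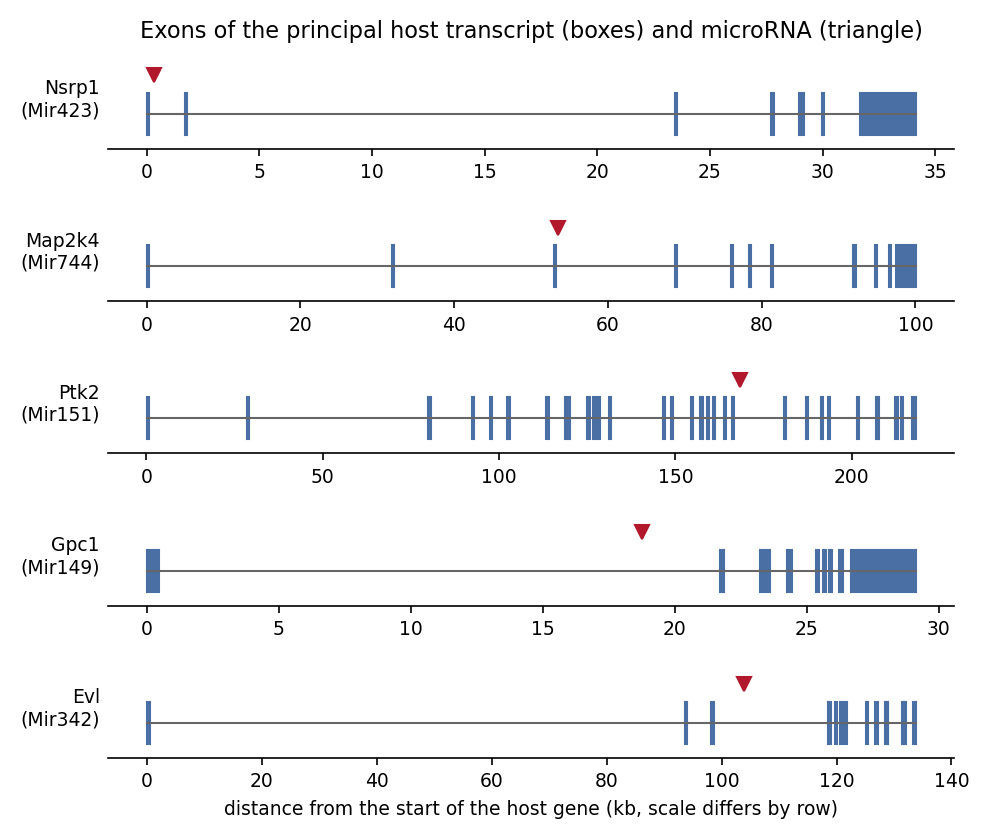
Exons (boxes, drawn at a minimum width so that short ones can be seen) of the principal transcript of each host gene and the place of the microRNA (triangle), as distance in kb from the start of the host, with a scale of its own in each row. Mir423 sits 0.263 kb after the start of Nsrp1, and Mir151 168.4 kb after the start of Ptk2.

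The hosts and positions have little in common. The host genes span 29.1 kb (Gpc1) to 218.2 kb (Ptk2), and the microRNA lies between 0.77% (Mir423) and 77.7% (Mir342) of the way along its host. Of the 5 genes 2 (Mir423 and Mir149) are in a first intron, against 39 of the 148 genes with at least 10 reads in each library among microRNA genes in introns of coding genes on the same strand. The intron is longer than 10 kb for 4 of the 5 and for 72 of these 148. The median intron length was 15588 bases for the 5 genes and 9617 bases for the 148. The 8 mature arms had a median of 58.7% G and C, with a range of 50.0% to 81.8%, while the 171 arms of the genes that reached 1000 CPM in both libraries had a median of 50.0%. CPM stands for reads of a gene per 1000000 reads assigned to microRNA genes.

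Each of the 5 genes supplied between 0.685% and 0.983% of the reads assigned to microRNA genes in a library. Together they held 4.35% in replicate 1 (143586 reads, 95% Wilson interval 4.33 to 4.38%) and 4.19% in replicate 2 (154171 reads, 4.17 to 4.21%), or 4.27% ± 0.118 (SD, n = 2). The libraries held 3297835 and 3682410 such reads, which were 42.2% and 39.1% of all their reads. Multiply mapping reads, 30.9% and 29.5% of the libraries, are in no gene's count. Intervals here and further on reflect counting error alone, and since the labels name no molecular identifiers, copies of 1 molecule can be counted as several reads.

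Mir423, a microRNA found in most mouse and human tissues, had 9830 CPM in replicate 1 and 8933 CPM in replicate 2. Its mean of 9382 ± 634 CPM (SD, n = 2) was the highest of the 5, at rank 22 of all 1973 genes. Mir744, known from mouse cells as a microRNA that can act on the promoter of the cyclin B1 gene, had 8966 and 8870 CPM in replicates 1 and 2, a mean of 8918 ± 67.6 CPM. These values differ by 1.08%, the closest agreement of the 5 genes. Mir151, a relative of Mir28a and Mir708 that is known in human liver cancer for a role in cell migration, had 7809 and 9387 CPM, a mean of 8598 ± 1116 CPM. Mir149 had 8688 and 7829 CPM, a mean of 8259 ± 607 CPM. Mir342, known in human myeloid cells as a target of the factor PU.1, had 8247 and 6847 CPM, a mean of 7547 ± 989 CPM, which puts it at rank 30. Levels are compared between genes as reads per gene without division by a length, since a read of a mature microRNA covers nearly its whole length. Whether molecules of different microRNAs give equal numbers of reads was not tested, so differences between genes are of reads and not of molecules.

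The 5 levels, of genes picked with their abundance known, lie close together, and their order is not fixed. The highest mean was 1.24 times the lowest. In replicate 1 the order was Mir423, Mir744, Mir149, Mir342 and Mir151, and in replicate 2 it was Mir151, Mir423, Mir744, Mir149 and Mir342. Mir151 was thus the lowest of the 5 in replicate 1 and the highest in replicate 2, while the other 4 kept their order. Of the 10 pairs of genes 6 had the same order in both libraries. For 4 pairs the means also differed by more than the larger of both SDs, namely Mir423 over Mir149, Mir423 over Mir342, Mir744 over Mir149 and Mir744 over Mir342. Neighbours in the order of the means (Mir423 and Mir744, Mir744 and Mir151, Mir151 and Mir149, Mir149 and Mir342) all differed by less than the larger SD.

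**Figure D2:**
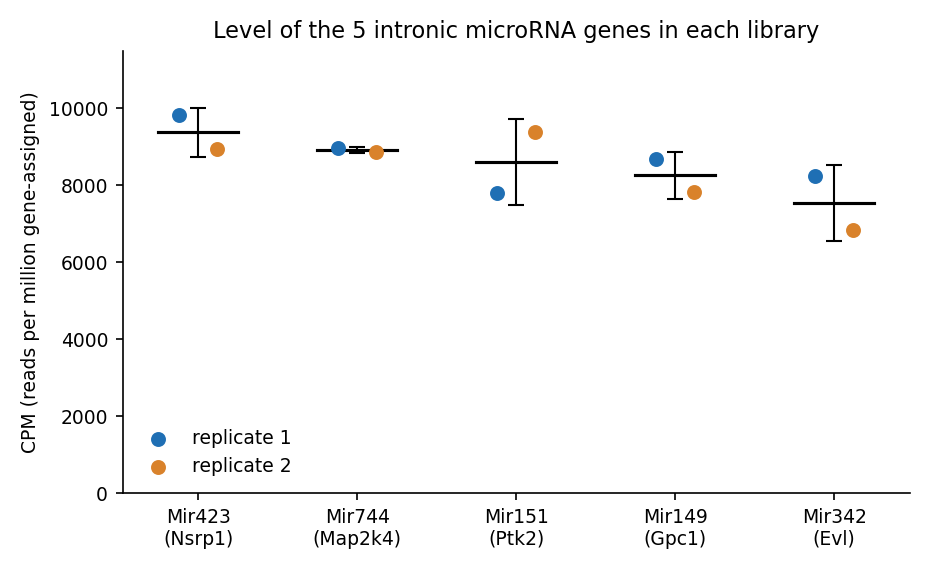
CPM of the 5 genes (vertical axis, host gene in brackets) in replicate 1 and replicate 2 (points), with the mean (line) and SD (bar, n = 2). Mir151 is the only one of the 5 with the higher value in replicate 2, 9387 CPM against 7809 CPM in replicate 1.

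All reads of the 5 genes were in the count column taken as the strand of the gene. The other strand had 0 reads for each of them in both libraries, which allows at most 0.0119% (3 counts of 25215 reads, Mir342 in replicate 2). This includes Mir151, where the antisense gene 1700085D07Rik spans the hairpin. The hairpins of the 5 genes share no stretch of 20 bases with another microRNA locus. The longest stretch in common with any of 2201 other precursors had 14 bases for Mir423, 15 for Mir744, 17 for Mir151, 15 for Mir149 and 12 for Mir342.

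By mean CPM the 5 genes took ranks 7 to 11 without a gap. They were ranked among the 654 microRNA genes that lie in introns of coding genes on the same strand. All 654 together had 35.0% ± 1.07 of the reads assigned to microRNA genes (SD, n = 2), and the 5 genes held 12.7% of these in replicate 1 and 11.7% in replicate 2. Of the 654 genes 31 reached 1000 CPM in both libraries and 307 had no read in either. The next gene above was Mir106b in Mcm7, with 13866 and 13208 CPM, higher than each of the 5 in both libraries. The next gene below was Mir652 in Tmem164, with 6491 and 7975 CPM. Its level in replicate 2 was above that of Mir342 (6847 CPM) and Mir149 (7829 CPM). In replicate 1 Mir181c in Nanos3, named after its values were seen, had 8228 CPM, above Mir151 (7809 CPM). The lower border of the group is thus not sharp. The rule for the 5 genes holds no cutoff of level, but they were picked with their abundance known. Their ranks and closeness in level can follow from that choice, and these borders are given as description.

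**Figure D3:**
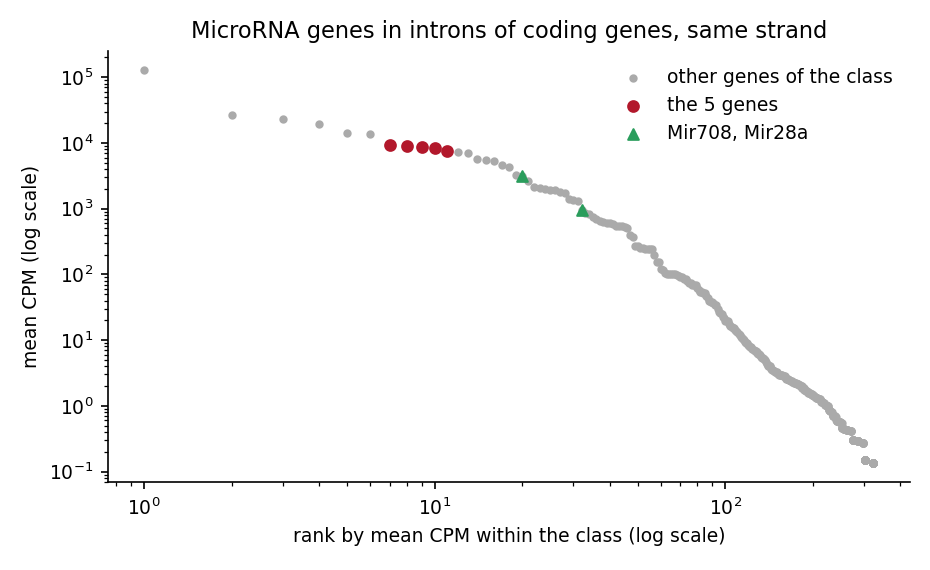
Mean CPM (log scale) against rank (log scale) for the microRNA genes with reads that lie in introns of coding genes on the same strand. The 5 genes (dots) hold ranks 7 to 11 between 7547 and 9382 CPM, and Mir708 and Mir28a (triangles) ranks 20 and 32.

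Over the 2 libraries, the gene nearest in level to each of the 5 was taken as the one with the smallest sum of absolute differences in log2 CPM. Mir744 and Mir423 were nearest to each other (sum 0.14), and Mir744 was also nearest to Mir149 (0.23). Nearest to Mir151 was Mir92-1 of the Mir17hg polycistron, with 8358 and 9508 CPM (0.12). Mir92-1 shares a stretch of at least 20 bases with another microRNA locus, so its count is uncertain. Nearest to Mir342 was Mir143, a microRNA known from smooth muscle and mesenchyme, with 8342 and 6509 CPM (0.09). With 2 libraries such nearness is a match of 2 values and no pattern over conditions.

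Between the pools, the higher CPM of a gene exceeded the lower by 1.08% (Mir744) to 20.4% (Mir342) among the 5 genes. The ratio of replicate 1 to replicate 2, with library sizes scaled by TMM, was 1.20 for Mir342 (95% counting interval 1.18 to 1.22), 1.11 for Mir149 (1.09 to 1.12) and 1.10 for Mir423 (1.08 to 1.11). It was 1.01 for Mir744 (0.992 to 1.02) and 0.829 for Mir151 (0.816 to 0.843). An exact binomial test on the reads, two-sided and adjusted by Benjamini-Hochberg over 485 genes with at least 10 reads in sum, compares these libraries and not conditions. It called 241 genes, 49.7% of those tested, of which 129 (26.6%) were higher and 112 (23.1%) lower in replicate 1. The split turned to 115 higher and 120 lower when size factors from DESeq2 were used. Mir342 (log2 ratio 0.26, adjusted p = 7.70e-96), Mir149 (0.15, adjusted p = 1.13e-32) and Mir423 (0.13, adjusted p = 2.78e-31) were called higher in replicate 1 by this exact test. Mir151 was called lower (log2 ratio −0.27, adjusted p = 2.27e-114), and Mir744 was not called (0.01, adjusted p = 0.486).

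Calls at this depth say little about size. The 4 calls among the 5 genes stand beside 100 calls among the 104 genes that reached 1000 CPM in both libraries, so a call at this level of reads is no result about the 5. With 25215 to 34566 reads per gene and library, the SD from counting alone is 0.538 to 0.630% of the level, while the SD between the libraries was 6.76% for Mir423, 0.758% for Mir744, 13.0% for Mir151, 7.35% for Mir149 and 13.1% for Mir342. The absolute log2 ratio had a median of 0.15 over the 5 genes, 0.23 over the 104 genes and 0.33 over all 485. Of the 104 genes 30 had a smaller absolute log2 ratio than Mir423, 33 than Mir149, 61 than Mir342 and 63 than Mir151, and none had a smaller one than Mir744 with TMM scaling. A pool with fewer cells of a type and a pool with less of the microRNA per cell cannot be told apart in these libraries.

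Mir151, Mir28a and Mir708 differed between the libraries by nearly the same ratio. They belong to the mir-28 family, which holds, beside Mir151, Mir28a in Lpp, the gene of a focal adhesion protein, Mir708 in Tenm4, the gene of a teneurin of developing neurons, and Mir28b. Mir708 is known from mouse cells as a microRNA induced together with its host under stress of the endoplasmic reticulum. Mir28c, also on the list, is not among the counted genes. The arms of Mir28a and Mir708 from RefSeq (GRCm38.p6) are shown because they carry 1 seed, in capitals.
miR-28a-5p: aAGGAGCUcacagucuauugag
miR-708-5p: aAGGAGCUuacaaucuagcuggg
Mir28a had 863 CPM in replicate 1 and 1038 CPM in replicate 2, and Mir708 had 2825 and 3383 CPM, so both were higher in replicate 2, as Mir151 was. Mir28b had 3 reads and 1 read. The log2 ratio of replicate 1 over replicate 2 was −0.27 for Mir28a (adjusted p = 1.53e-13), −0.26 for Mir708 (adjusted p = 2.66e-40) and −0.27 for Mir151 in the exact binomial test, and these 3 values span 0.0055. With TMM scaling, the ratio itself was 0.829 for Mir28a (counting interval 0.790 to 0.871) and 0.832 for Mir708 (0.810 to 0.855). It was 0.829 for Mir151 (0.816 to 0.843). These intervals are wider than the differences between the 3 ratios, so the counts do not resolve how closely they match. The SD from counting alone was 1.87% and 1.62% of the level of Mir28a in replicates 1 and 2. Within such error, Mir151 had 9.05 times the CPM of Mir28a in both libraries, and 2.76 and 2.77 times that of Mir708. Its level in replicates 1 and 2 relative to the other 4 of the 5 genes was 0.794 and 1.05 for Mir423, 0.871 and 1.06 for Mir744, 0.899 and 1.20 for Mir149, and 0.947 and 1.37 for Mir342. Mir28a and Mir708 each share a stretch of at least 20 bases with another microRNA locus, so their counts are uncertain, while the longest stretch that Mir151 shares is 16 bases with Mir28a and 15 bases with Mir708. Other genes lay near as well, since 11 of the 104 genes of at least 1000 CPM in both libraries, Mir708 among them, were within 0.05 of the log2 ratio of Mir151.

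**Figure D4:**
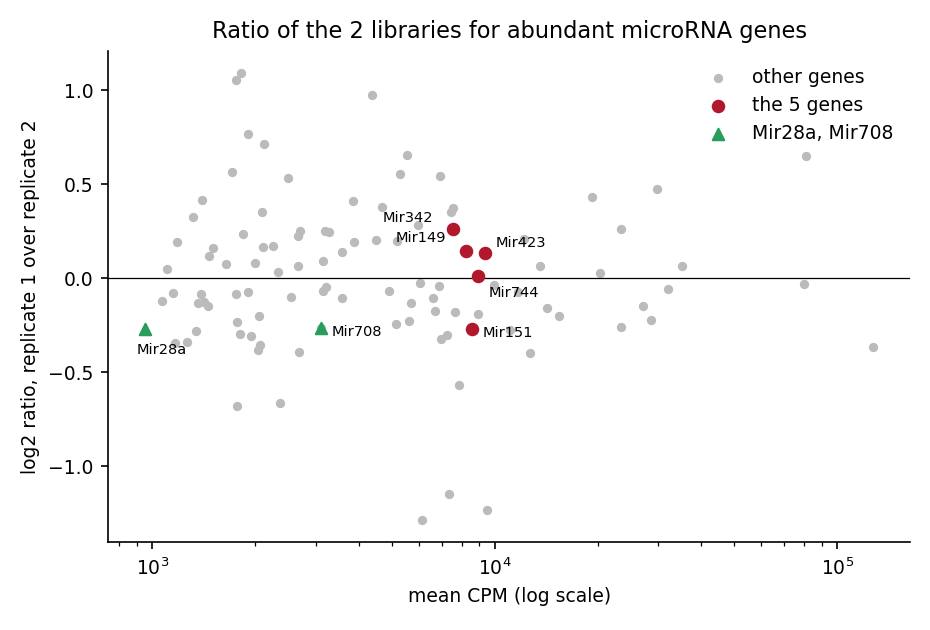
Log2 ratio of replicate 1 over replicate 2 (vertical axis) against mean CPM (log scale) for the 104 genes of at least 1000 CPM in both libraries, with Mir28a (950.5 CPM) added. Mir151, Mir708 and Mir28a lie at −0.27, −0.26 and −0.27, and the other 4 of the 5 genes between 0.01 and 0.26 with TMM scaling.

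Markers of cell types were compared for the same libraries. The neural list (11 of 12 microRNA genes counted, none at 0) summed to 31960 CPM in replicate 1 and 35699 CPM in replicate 2, most of it from Mir92b, known from neural progenitors. Without Mir92b the sums were 10715 and 10347 CPM, and 6 of the 11 genes were higher in replicate 1, among them Mir137 (1424 and 782 CPM) and Mir153 (2403 and 1408 CPM). The 5 that were higher in replicate 2 include, beside Mir92b, Mir219a-2 (4722 and 5580 CPM) and Mir219a-1 (1813 and 2312 CPM). The defining Mir124a and Mir9 copies were at 0.543 to 137 CPM per gene and library, in counts that leave out reads mapping to several places. Mir126a, known from endothelium, had 26449 and 30780 CPM. The leukocyte list (4 of 6 counted, none at 0) summed to 1278 and 1453 CPM, and without Mir142b, the 1 member of the 4 that was higher in replicate 2, to 595 and 588 CPM. The erythroid list (3 of 3) summed to 404 and 374 CPM, most of it from Mir451a, the 1 member higher in replicate 1. Without Mir451a the sums were 49.7 and 78.5 CPM, and the other 2 genes were higher in replicate 2. Of the muscle list (6 of 7 counted, 3 at 0) the sums were 49.7 and 55.7 CPM, and the liver microRNA Mir122 had 5.76 and 15.2 CPM. The part of these lists in the differences between the libraries was not tested.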

How the data were processed

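Small RNA libraries of 1 group, 2 biological replicates, were analysed. Values are counts of reads for each microRNA gene as deposited, not normalized. The authors aligned the reads to mm10 and counted them on GENCODE M4, per the deposited file descriptions. The aligner is not given in the sources used here, nor is the trimming. A file holds 1973 microRNA genes and 4 rows without a gene. The first count column, equal to the sum of the other 2, was used. The second, with 97.4% and 97.3% of these reads, was read as the strand of the gene, which no header states. Identifiers were matched without version to GENCODE M21 (GRCm38, the same build as mm10), with 1894 of 1973 matched. Coordinates are 1-based.

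A gene was intronic when it lay within a transcript of a coding gene on the same strand and overlapped no exon of any transcript of that coding gene. Where several coding genes overlapped it on that strand, this had to hold for each. In total 929 genes share 20 bases with another microRNA locus. CPM, means and SDs were computed over the replicates. Log2 ratios used 0.5 added reads and TMM (edgeR 4.0.16). The exact binomial test takes reads as independent, which makes its calls too many. On simulated counts with Poisson error alone (200 changed genes) it called 63.5% of them at a change of 1.5-fold among 487 genes, 74.0% at 2-fold among 489 and 88.0% at 4-fold among 480, and it called 2, 3 and 6 unchanged genes.

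The 5 genes, the lists and the comparisons were chosen with earlier results of these data known. Genes named beside the 5 followed a rule: next in rank within the class, nearest in level, same seed, the mir-28 family, and the marker lists. Alternatives were DESeq2 size factors (DESeq2 1.42.0), totals, other filters, added reads, the gene's strand only, other denominators and each replicate alone. Software was R 4.3.3 and, under Python 3.11.15, scipy 1.17.1, numpy 2.4.6, matplotlib 3.10.9 and pandas 2.3.3.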

Additional observations from a re-analysis of the deposited data

Results flagged for a closer look

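Reads on the strand opposite to the gene were looked at for the 5 genes and the mir-28 family, as a column that no comparison of levels uses by itself. Mir708 had 16 such reads in replicate 1 and 11 in replicate 2, above the 3 counts that a count of 0 allows, beside 9301 and 12447 reads on its own strand. Over all genes, 97.4% and 97.3% of the gene-assigned reads in replicates 1 and 2 were in the gene's strand column. The opposite share of Mir708 was lower than that of the libraries as a whole. The 5 genes, Mir28a and Mir28b had no read on the opposite strand.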

How the results depend on the processing

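The calls and directions of Mir423, Mir151, Mir149 and Mir342 between the libraries were the same under the 6 alternatives run for each, with log2 ratios of 0.10 to 0.15 (adjusted p 2.60e-41 to 1.17e-17), −0.30 to −0.25 (2.75e-145 to 8.90e-98), 0.11 to 0.17 (2.98e-42 to 1.97e-19) and 0.23 to 0.28 (3.77e-111 to 1.38e-72) in the exact binomial test. The alternatives without added reads and with 1 added read alter the log2 ratio alone. They could not change a call, since the exact test does not use added reads. Mir744 has no stable direction: its log2 ratio was −0.0239 with DESeq2 size factors (adjusted p = 0.0757) and 0.0312 with TMM factors from genes that share no sequence, where it was called (adjusted p = 0.0167, exact test). Its adjusted p in the exact test spanned 0.0167 to 0.486. A change of library scaling alone shifts the log2 ratio of every gene by the same amount, here enough to turn the sign of Mir744. The number of genes called was 210 to 240 under the alternatives, against 241 of 485 tested. The number tested differed as well, so the share called depends on the filter. It was 210 of 1973 genes without a filter on low counts and 230 of 399 with at least 10 reads in each library. On the gene's strand only, 227 of 473 were called.

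CPM depends on what is in the total. Without Mir335, the most abundant gene, the means were 10745 (Mir423), 10222 (Mir744), 9872 (Mir151), 9458 (Mir149) and 8637 (Mir342) CPM and the 5 genes held 4.89%. Without genes that share sequence, they held 4.71%, with 10355 (Mir423), 9845 (Mir744), 9499 (Mir151), 9115 (Mir149) and 8327 (Mir342) CPM. On the gene's strand only, the means were 9639 (Mir423), 9162 (Mir744), 8834 (Mir151), 8485 (Mir149) and 7753 (Mir342) CPM. These shifts follow from the smaller total. The share of the intronic class was 42.3% with the genes that overlap exons of coding genes added (863 genes), 36.3% without genes that share sequence (393 genes) and 25.5% without Mir335 (653 genes). The total was reduced in the same way for 36.3% and 25.5%. With each replicate alone, the 5 genes held 4.19% to 4.35% and the 654 genes 34.3% to 35.8%, and the means of the 5 genes are replaced by the values of each library given above.

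No paired analysis was possible because there is 1 group. With 2 libraries, differences between pools and between library preparations cannot be told apart, and the depth of at least 25215 reads per gene is not what limits these values.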

Other observations

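Other positions of microRNA genes gave the remaining reads. The 200 genes that lie in a non-coding gene on the same strand held 33.8% of the gene-assigned reads in replicate 1 and 29.3% in replicate 2. The 619 genes outside any such gene held 20.3% and 21.7%, and the 209 genes that overlap an exon of a coding gene on the same strand 7.29% and 7.22%. The 212 genes that lie in a coding gene on the opposite strand held 4.35% and 6.02%.

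Among the intronic genes below the 5, chosen after their values were seen, Mir872 in Ift74 had 5443 and 5948 CPM in replicates 1 and 2, and Mir361 in Chm had 3167 and 3267 CPM. Both hosts are coding genes. Mir652, within 0.05 of the log2 ratio of Mir151 between the libraries, lies in Tmem164.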
